A study of Zea mays with 4 samples.

Results

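Genes of the maize leaf that kept almost none of their reads when leaf cells were isolated as protoplasts are described here. The 147 genes were chosen by their counts in protoplasts and in whole leaf. They lie on chromosomes 1, 2 and 10 and had at least 1 count in each protoplast library and 200 to 10000 counts in each leaf library. The score of a gene was the log2 of its higher protoplast level over its lower leaf level, with levels in CPM, the count scaled to a fixed library total over the genes counted in all 4 libraries. Of 4019 genes that met these limits, the 150 lowest scores were taken. The rule then left out 4 sugar transport, nitrogen and sulfur genes by name, 3 of which were among the 150. The annotation lists 46430 genes in all, and 18609 of them could be compared across the 4 libraries.

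The libraries came from the B73 inbred line, from the distal part of leaf 2 of V2 seedlings. Protoplast 1 and protoplast 2 were pools of cells released by enzyme digestion, and leaf 1 and leaf 2 were pools of undigested leaf segments, so both groups share genotype, stage and leaf portion. The labels give 6 plants for each pool of protoplasts and the methods give 4 leaves. Per the methods, replicates were separate plants raised at the same time, and the leaf segments were taken from siblings of the digested plants. Total counts over the shared genes were 17049307 and 14976340 in protoplasts and 18322950 and 15838934 in leaf, and 3 counts corresponded to between 0.164 and 0.2 CPM.

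A maize leaf carries out C4 photosynthesis in a pair of cell layers. Mesophyll cells fix carbon first and pass it on to bundle sheath cells, which encircle the veins, hold Rubisco and also handle much of photorespiration, sulfate assimilation and the loading of sugars and amino acids into the phloem. Walls of the maize bundle sheath contain suberin and lignin and resist the digesting enzymes more than those of mesophyll cells. A protoplast library therefore need not hold the cell types of the leaf in their original proportions.

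Cell type markers that are not among the 147 genes had the following levels. RBCS2, a Rubisco small subunit gene of the bundle sheath, had 121 and 113 CPM in protoplasts and 8225 and 8192 CPM in leaf. MDH6, a malate dehydrogenase gene of the mesophyll, had 7255 and 5641 CPM in protoplasts and 6884 and 6860 CPM in leaf. SUT1, the sucrose transporter of companion cells, had 1.11 and 0.868 CPM in protoplasts and 1026 and 964 CPM in leaf. RBCS2 and SUT1 were thus low in both protoplast libraries and MDH6 was not. Bundle sheath C4 genes were not low to one degree. In the higher protoplast library, RBCS2 kept 1.48% of its lower leaf level, FBPA, an aldolase gene, 1.34% and PCK1, a carboxykinase gene, 2.01%. By the same measure RBCL kept 19.3% and MDH kept 54.8%. RBCL here is a gene annotated on chromosome 2, which the study marks as genomic, with introns. Whether its counts include reads from elsewhere was not checked. The rule chose the 147 genes for low protoplast levels, so sharing the direction of RBCS2 and SUT1 was fixed in advance. The part of cell composition in the values of the 147 genes was not tested. In bulk libraries, fewer cells of a type and less RNA per cell cannot be told apart.

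As a group, the 147 genes made up 0.0398% and 0.0315% of the counts in protoplasts, against 1.14% and 1.13% in leaf. Their summed level was 398 and 315 CPM in protoplasts and 11359 and 11305 CPM in leaf. The median gene had 1.17 and 0.868 CPM in protoplasts, against 36.8 and 36.1 CPM in leaf. Scores ran from -9.66 to -3.63 with a median of -4.75, beside a median of -0.08 for the 3872 other eligible genes. For each gene the summed protoplast counts were also expressed as a percentage of the summed leaf counts after scaling by library totals. The median of this percentage was 2.91% over the 147 genes and 84.9% over the other eligible genes. The 8 most abundant of the 147 genes carried 34.6% of the group's protoplast level and 29.6% of its leaf level.

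**Figure D1:**
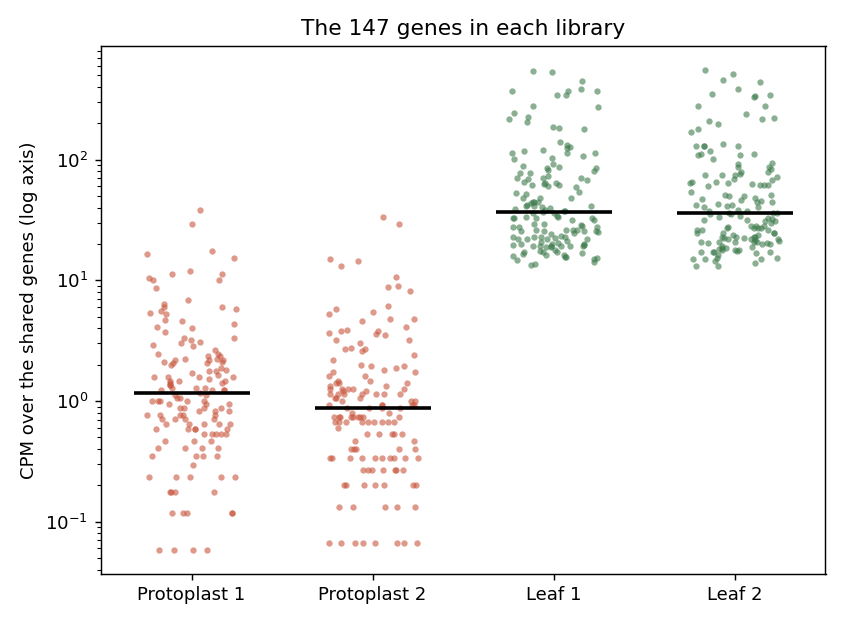
Level of each of the 147 genes in each library, in CPM over the genes shared by all libraries on a log axis; each point is 1 gene, sideways scatter is for display, and black bars are medians. The medians were 1.17 and 0.868 CPM in protoplasts and 36.8 and 36.1 CPM in leaf, and the flat rows at the bottom of the protoplast columns are genes with 1, 2 or 3 counts.

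In the fit across all 9017 genes tested by edgeR's quasi-likelihood test, 147 of the 147 genes were called lower in protoplasts. A call required a log2 fold change below -1, or above 1 for a higher level, and a p of 0.05 after Benjamini-Hochberg adjustment. Over all genes tested, 23.4% were called lower and 19.6% were called higher. Values of the 147 genes did not overlap between the groups. The rule used this contrast and fixes both counts, so they are a description and no support for the loss. Their median log2 fold change was -4.82, beside -0.02 over all genes tested, with TMM scaling of the libraries. Scaling by library totals, as in the score, moved the median of all genes tested to -0.31 and that of the 147 genes to -5.11.

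The 12 lowest scores belonged to genes for which the sources used here give no name, so only their identifier, place and values can be reported. Coordinates are those of the AGPv4 annotation in the count tables, from the first to the last annotated exon. Zm00001d029855 (chr1:90443929-90445866, minus strand, 1 exon block) had the lowest score of all eligible genes. It had 1 and 2 counts in protoplasts, against 2089 and 1712 counts in leaf. Its protoplast level was 0.0842% of the leaf level, with an exact 95% interval from 0.0174% to 0.246%. Intervals of this kind cover counting error only. Zm00001d023592 (chr10:11123676-11125741, plus strand) had 2 and 1 counts in protoplasts and 1459 and 1255 counts in leaf, which gave 0.118% (0.0243% to 0.345%). These leaf levels, 114 and 108 CPM for Zm00001d029855 and 79.6 and 79.2 CPM for Zm00001d023592, are above the upper quartile of the group.

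Zm00001d026010 (chr10:135896388-135908452) had 1 count in each protoplast library and 351 and 327 counts in leaf. Zm00001d033671 (chr1:270391709-270392980) had 2 counts in each protoplast library and 480 and 428 counts in leaf. Zm00001d029849 (chr1:89947372-89952516) had 3 counts in each protoplast library and 598 and 535 counts in leaf. For genes as rare as these in protoplasts the size of the loss is loosely fixed, and the interval for Zm00001d026010 ran from 0.038% to 1.14% of the leaf level. Zm00001d027938 (chr1:17999743-18003647) had 2 counts in each protoplast library and 373 and 321 counts in leaf. Zm00001d034916 (chr1:305500618-305502078) had 4 and 1 counts in protoplasts and 667 and 706 counts in leaf. Zm00001d006446 (chr2:208457127-208458693) had 4 and 3 counts in protoplasts and 663 and 496 counts in leaf. A gene with 1 count in each protoplast library and 200 in each leaf library would score -7.35, so scores below that value were open only to genes above the leaf minimum.

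The other 4 of these genes had 6 or more counts in each protoplast library. Zm00001d029373 (chr1:67969019-67973213, 8 exon blocks) had 22 and 10 counts in protoplasts, against 3338 and 3304 in leaf, which gave 0.514% (0.351% to 0.726%). Zm00001d028625 (chr1:41269098-41270850) had 10 and 19 counts in protoplasts, against 2564 and 2063 in leaf, which gave 0.669% (0.447% to 0.961%). Zm00001d034634 (chr1:298573878-298575017) had 14 and 11 counts in protoplasts, against 1563 and 1483 in leaf, which gave 0.875% (0.566% to 1.29%). For Zm00001d029373 and Zm00001d028625, a loss to under 1% of the leaf level thus rests on 10 or more reads in each library. The interval of Zm00001d034634 reached past 1%. Zm00001d032825 (chr1:239383321-239384004, 1 exon block of 684 bases) had 7 and 6 counts in protoplasts and 1620 and 1011 counts in leaf, and its leaf libraries were further apart than those of most of the 147 genes.

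**Figure D2:**
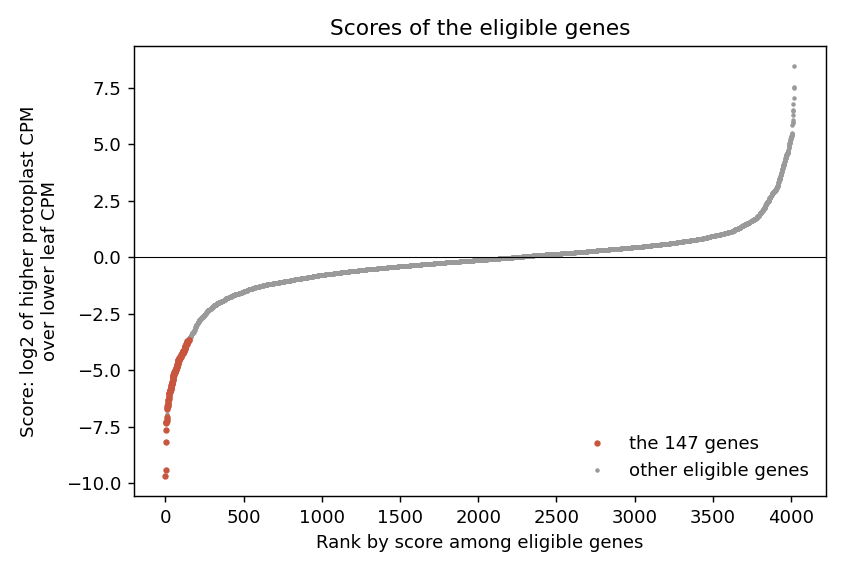
Score of each eligible gene, the log2 of its higher protoplast CPM over its lower leaf CPM, plotted by rank among the 4019 eligible genes; red points are the 147 genes and grey points the other 3872. The curve is continuous at the limit, with scores of -3.63 on both sides of it.

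The limit at the 150th score did not fall in a gap. The genes just inside it were Zm00001d026288, Zm00001d005392 and Zm00001d005460, with scores of -3.68, -3.65 and -3.63. The genes just outside it were Zm00001d030285, Zm00001d034591 and Zm00001d002940, with scores of -3.63, -3.59 and -3.58. Zm00001d005392 had 38 and 26 counts in protoplasts and 532 and 444 in leaf, and Zm00001d030285 had 38 and 33 counts in protoplasts and 558 and 437 in leaf. A further 29 genes in the same leaf range had 0 counts in at least 1 protoplast library, 11 of them in both, and were not eligible.

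Among the 147 genes, 20 have a description in the tables of the study or belong to its tree of UmamiT genes. By fixed words in these descriptions, 4 fell in a transport class, 1 in a cell wall class, 2 among transcription factors and 12 among other proteins. Of the 4, a pair matched only by the name of a family of metal-binding proteins, heavy metal transport/detoxification. The UmamiT gene and a MATE carrier, which those words did not catch, are transporters. No description held a word for a kinase or signalling protein. These descriptions exist mostly for genes that the study listed as cluster markers or as changed, so the shares of the classes say nothing of the other 127 genes.

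Transporters included some of the deepest losses with a name. Zm00001d002708, described as a probable copper-transporting ATPase HMA5, a pump that moves copper across membranes, had 0.411 and 0.267 CPM in protoplasts, against 39.3 and 43.2 CPM in leaf. Multidrug and toxic compound extrusion3 (Zm00001d028228), of the MATE family of efflux carriers, had 0.117 and 0.2 CPM in protoplasts, against 19.6 and 17.7 CPM in leaf. These protoplast levels are 2 and 3 counts, which gave 0.835% of the leaf level (0.270% to 1.96%). Zm00001d030424 had 0.528 and 0.134 CPM in protoplasts, against 33.0 and 35.8 CPM in leaf. The study's tree joins its protein to that of Zm00001d009372 at almost no distance. Whether these genes share reads was not checked. UmamiT proteins are known in Arabidopsis as amino acid exporters, and 16 genes of the maize tree have rows in the count table. Most of them had few or no counts in leaf, and 2 met the limits of the rule, Zm00001d030424 and Zm00001d032604. Zm00001d032604 had 272 and 204 CPM in protoplasts and 311 and 299 CPM in leaf and was not among the 147. Another tree gene, Zm00001d030507, had 0 counts in both protoplast libraries and 248 and 206 counts in leaf, and was not eligible for that reason.

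Purine permease 3 (Zm00001d005934), whose Arabidopsis relatives carry purine bases and cytokinins, had 2.35 and 1.27 CPM in protoplasts and 44.5 and 46.2 CPM in leaf. A pair of genes is annotated as heavy metal transport/detoxification superfamily proteins, small proteins with a metal-binding domain. Zm00001d027454 had 4.63 and 5.27 CPM in protoplasts and 120 and 112 CPM in leaf. Its relative in name, Zm00001d029716, had 10.1 and 8.08 CPM in protoplasts and 131 and 135 CPM in leaf. The protoplast level was 4.25% of the leaf level for Zm00001d027454 (3.60% to 4.99%) and 6.92% for Zm00001d029716 (6.12% to 7.78%), so the intervals did not overlap.

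Enzymes of nitrogen, sulfur and photorespiratory metabolism had high leaf levels and kept a larger share of them than the median gene of the group. Bifunctional 3-phosphoadenosine 5-phosphosulfate synthetase 2 (Zm00001d004513), which makes the activated sulfate used by sulfotransferases, had 38.5 and 33.3 CPM in protoplasts and 542 and 512 CPM in leaf. Glutamine synthetase6 (Zm00001d028260), an enzyme that assimilates ammonium, had 29.3 and 29.2 CPM in protoplasts and 381 and 384 CPM in leaf. Glycine cleavage system protein H1 (Zm00001d023699), the carrier subunit of the photorespiratory glycine decarboxylase, had 15.4 and 15.1 CPM in protoplasts and 447 and 460 CPM in leaf. Glycine cleavage H1 also had the highest leaf level per kilobase of the 147 genes, at 500 CPM per kb. The protoplast level was 6.84% of the leaf level for the sulfate gene (6.44% to 7.25%), 7.66% for glutamine synthetase6 (7.16% to 8.18%) and 3.37% for glycine cleavage H1 (3.07% to 3.69%). Glutamine synthetase6 had the highest such percentage of the 147 genes.

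Several further enzymes were among the 147 genes. A quinone oxidoreductase-like protein (Zm00001d032332), whose Arabidopsis counterpart is a chloroplast reductase of reactive carbonyls, had 5.57 and 5.41 CPM in protoplasts and 367 and 334 CPM in leaf. Alpha carbonic anhydrase 1 chloroplastic (Zm00001d003781), of an enzyme family that interconverts CO2 and bicarbonate, had 3.34 and 3.67 CPM in protoplasts and 218 CPM in both leaf libraries. Both kept about the same share, 1.56% (1.34% to 1.81%) and 1.60% (1.32% to 1.93%). Zm00001d033555, of a family named for fumarylacetoacetate hydrolase of tyrosine breakdown, had 1.17 and 0.935 CPM in protoplasts and 59.2 and 54.1 CPM in leaf. A phosphoglycerate mutase-like family protein (Zm00001d033551), the one gene of the group among the 39 abaxial bundle sheath genes that the study set out in its main text, had 17.4 and 14.4 CPM in protoplasts and 275 and 280 CPM in leaf. Its gene is by far the largest of the group, with 13842 exonic bases in 31 blocks. Allene oxide cyclase1 (Zm00001d029594), an enzyme of jasmonate synthesis, had 0.880 and 0.534 CPM in protoplasts and 17.3 and 15.0 CPM in leaf.

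Cell wall, cytoskeletal and regulatory genes completed the named set. Pectinesterase 31 (Zm00001d032992), which removes methyl groups from wall pectin, had 3.70 and 2.67 CPM in protoplasts and 84.8 and 86.9 CPM in leaf. A 65-kDa microtubule-associated protein 8 (Zm00001d031619), of a family that bundles microtubules, had 0.880 and 0.401 CPM in protoplasts and 44.3 and 41.4 CPM in leaf. Bowman-Birk type bran trypsin inhibitor (Zm00001d003306), a protease inhibitor, had 6.39 and 2.60 CPM in protoplasts and 225 and 220 CPM in leaf. In each of these genes protoplast 1 was the higher protoplast library, most clearly in the trypsin inhibitor. Transcription factor MYB48 (Zm00001d030678) had 2.17 and 1.27 CPM in protoplasts and 108 and 102 CPM in leaf. Transcription factor TGA4 (Zm00001d026398), a bZIP protein, had 2.11 and 0.868 CPM in protoplasts and 102 and 75.4 CPM in leaf. Methyl binding domain123 (Zm00001d026288), named for a domain that binds methylated DNA, had 1.70 and 1.34 CPM in protoplasts and 21.8 CPM in both leaf libraries, and lay just inside the limit.

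**Figure D3:**
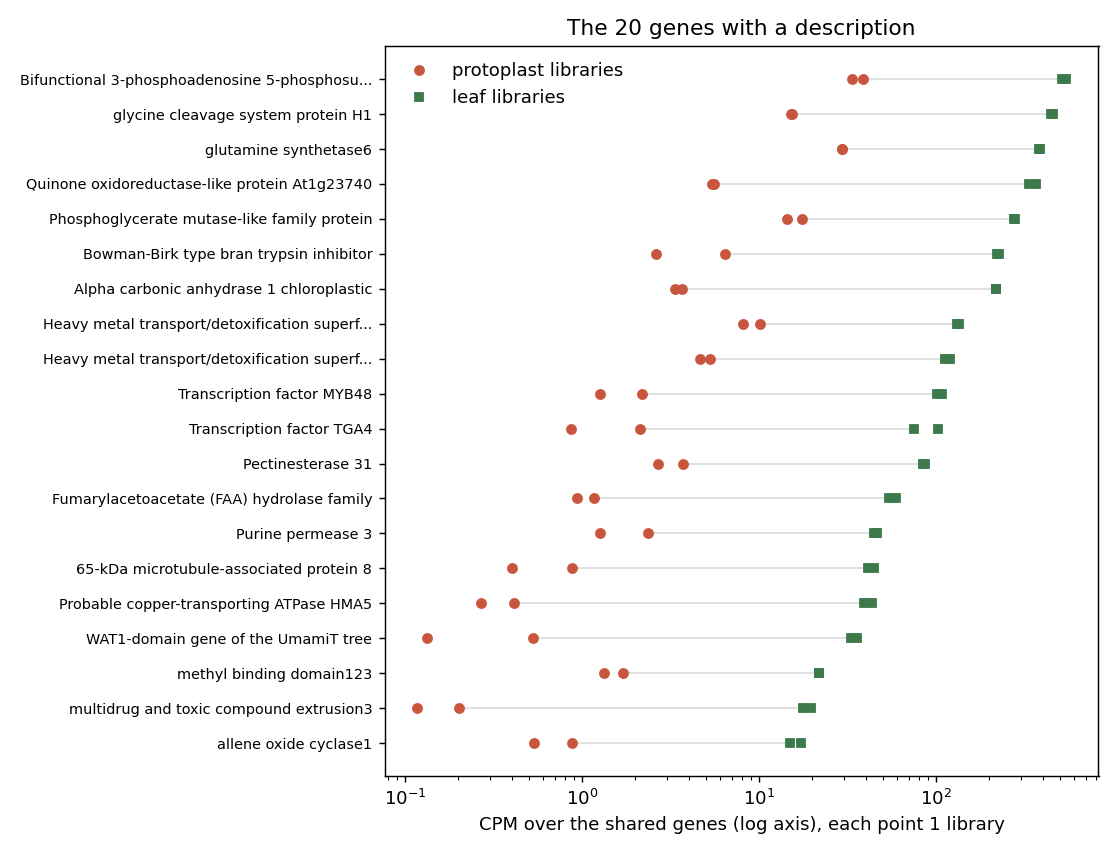
Levels of the 20 genes with a description in the 2 protoplast libraries (red circles) and the 2 leaf libraries (green squares), in CPM on a log axis, ordered by leaf level; grey lines span the gap between the groups. The sulfate gene at the top had 38.5 and 33.3 CPM in protoplasts and 542 and 512 CPM in leaf, and protoplast points of the rarer genes lie further apart.

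The highest leaf levels of the group were not confined to named genes. Zm00001d002871 (chr2:25171106-25176433, 10 exon blocks) had the highest leaf level of all 147, with 16.5 and 9.01 CPM in protoplasts and 533 and 553 CPM in leaf. Zm00001d026632 (chr10:149192883-149193680, 1 exon block of 798 bases) had 9.97 and 3.81 CPM in protoplasts and 344 and 440 CPM in leaf. Zm00001d004689 (chr2:131242393-131243911) had 11.3 and 3.61 CPM in protoplasts and 370 and 346 CPM in leaf. In all of these, protoplast 1 was well above protoplast 2 on counts of 54 or more in each library. Zm00001d002549 (chr2:15219899-15220932, 1 exon block) had 11.9 and 8.81 CPM in protoplasts and 369 and 333 CPM in leaf.

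The study also lists genes by the single-cell cluster they marked, in cells that had themselves been released as protoplasts. At least 15 of the 147 genes are in its bundle sheath sheets, 10 under abaxial and 5 under adaxial, and 3 are in its mesophyll sheets. The abaxial sheet was held only in part, so these counts can be too low. The shares of the other eligible genes in these sheets are not given here, so no excess of either cell type can be read from the counts. Genes with a description or in the UmamiT tree were 13.6% of the 147 and 15.8% of the other eligible genes. Copper-transporting ATPase HMA5, the MATE carrier, alpha carbonic anhydrase, MYB48, TGA4 and glutamine synthetase6 are among those in the abaxial sheet. The study names glutamine synthetase6 GLN3 and found it in both bundle sheath subclusters, so a sheet need not mark a side. Of the 39 genes it found higher in abaxial than in adaxial cells, 1 is among the 147, and 13 others could be compared. The rule itself lowered this count. The 3 genes that it left out by name from the 150 lowest scores are all on that list. SWEET13a, above the leaf maximum, and SWEET13c, on chromosome 3, are on it too and were not eligible. Purine permease 3, the trypsin inhibitor and the sulfate gene are among those in the adaxial sheet. Pectinesterase 31, allene oxide cyclase1 and Zm00001d002549 are the ones in the mesophyll sheets, and their protoplast levels were 3.75%, 4.42% and 2.97% of the leaf level. The study's bulk sheets of bundle sheath genes hold 10 of the 147, and 7 of these are already among the 15. All 10 are also in its bulk sheets of mesophyll genes, so the bulk sheets do not place them in a cell type, and they were drawn up from these same libraries and are no independent evidence.

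Related genes that lie outside the 147 were counted in the same fit, by edgeR's quasi-likelihood test. Of the bundle sheath C4 genes, 5 could be tested, and 4 were called lower, beside 23.4% of all genes. The fifth, a malate dehydrogenase gene, had 338 and 233 CPM in protoplasts and 616 and 623 CPM in leaf, a log2 fold change of -0.83 that is inside the fold limit. None of these 5 genes was called higher, also with DESeq2 or limma-voom, and 0 had a higher level at an unadjusted p under 0.05. The mesophyll C4 genes had 2 tested, with 0 called in either direction by edgeR, DESeq2 or limma-voom. At an unadjusted p under 0.05, 1 of them was higher and 0 lower. This was PDRP1, the regulator of pyruvate orthophosphate dikinase, at 3472 and 3170 CPM in protoplasts and 2864 and 2865 CPM in leaf.

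In the same list of 39 abaxial bundle sheath genes, 8 of 13 were called lower, with a median log2 fold change of -1.31 over the 13. Of these 8, 3 had scores among the 150 lowest and lie outside the 147 only because the rule left them out by name. The direction of those 3 was thus fixed in advance. None of the 13 was called higher by edgeR, DESeq2 or limma-voom, beside 19.6% of all genes, and 1 was higher at an unadjusted p under 0.05. The UmamiT tree had 5 genes tested outside the 147, of which 3 were called lower, each with 0 counts in both protoplast libraries. None of the 5 was called higher by any of these tools, and 0 at an unadjusted p under 0.05. Markers of the main mesophyll cluster split into 14 called higher and 16 called lower of 96 tested, with a median of -0.29. The bundle sheath sheets of the bulk data had 26 called lower and 6 called higher of 42, again a list the study chose on these libraries. Their median was -1.32, beside -4.82 for the 147 genes and -5.41 for the 5 bundle sheath C4 genes.

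Gene structure, which the rule did not use, differed between the 147 genes and the others. Exons of each gene were merged into blocks, and the length is the sum of the exonic bases. Single-block genes made up 25.2% of the 147, 37 in number, against 10.7% of the other eligible genes, and genes with over 5 blocks made up 21.8% against 47.2%. The median was 3 blocks in the 147 genes and 5 in the others. Exonic length had a median of 1679 bases in the 147 genes, against 2360 bases in the others. Leaf level and chromosome entered the rule and are given as context. Median leaf levels were 36.2 CPM in the 147 genes against 45.1 CPM in the others, and per kilobase 24.5 CPM per kb against 19.1 CPM per kb. Chromosomes 1, 2 and 10 held 47.6%, 33.3% and 19.0% of the 147 genes, against 47.7%, 34.2% and 18.1% of the others. These are descriptions without a test, since the genes are not independent replicates.

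**Figure D4:**
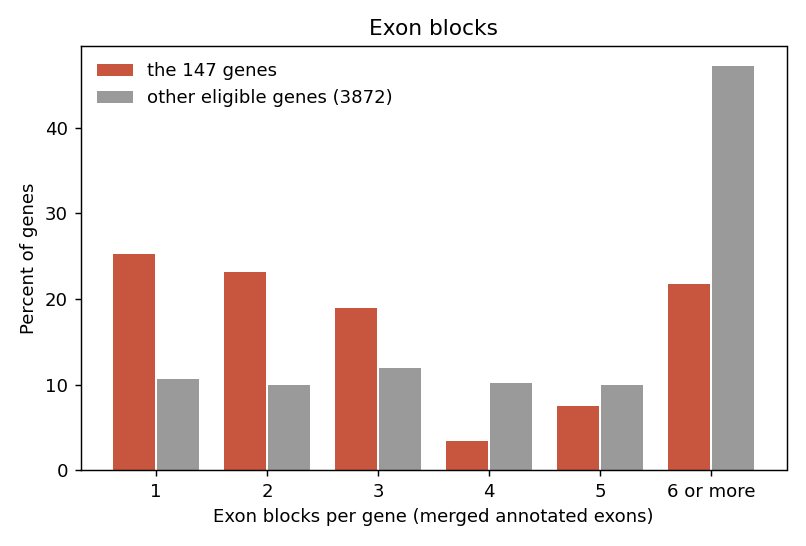
Percent of genes by number of exon blocks, for the 147 genes (red) and the other 3872 eligible genes (grey). Single-block genes made up 25.2% of the 147 genes and 10.7% of the others, and genes with 6 blocks or more 21.8% and 47.2%.

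A high share of single-block genes was not particular to the 147 genes and extended well past the limit. The share of single-block genes was 24.7% over ranks 1 to 150, 18.0% over ranks 151 to 300, 22.0% over ranks 301 to 600 and 17.8% over ranks 601 to 1000. It was 7.20% over ranks 1001 to 2000, 5.30% over ranks 2001 to 3000 and 12.4% over the ranks from 3001, where scores were above 0. Over the first 1000 ranks the share was uneven, and it was lowest in the middle of the ranking. Median exonic length was 1679 bases in the 147 genes and 2144 bases in the next 150 eligible genes. Within the 147 genes the median score was -4.54 for the 37 single-block genes and -5.18 for the 32 genes with over 5 blocks. These medians do not describe the extremes, since the gene with the lowest score, Zm00001d029855, has 1 block.

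The protoplast libraries were compared with each other over these genes, which the rule did not do. With CPM scaled by library totals, protoplast 1 was above protoplast 2 in 102 of the 147 genes, or 69.4%, against 64.9% of the other eligible genes and 82.0% of the next 150. The share was thus close to that of the others and under that of the genes ranked next. The median log2 ratio of protoplast 1 over protoplast 2 was 0.34 in the 147 genes and 0.29 in the next 150, against 0.11 in the others. With TMM factors, as in the fit, a comparison with the other genes that was added after seeing the data, these medians were 0.21, 0.17 and -0.02, and protoplast 1 was the higher library in 63.9% of the 147 genes, 68.0% of the next 150 and 47.5% of the others. The level of the ratio therefore depends on the scaling. TMM factors shift every ratio by the same -0.125, so the gap of 0.23 between the medians of the 147 genes and the others is unchanged by construction. The gap in the share of genes higher in protoplast 1 did depend on the scaling.

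Counting alone gives a ratio of single genes a median error of 0.532 on the log2 scale, so the ratio of most single genes is not resolved. The exact 95% interval for the share of protoplast counts in protoplast 1 lay above the share of the whole libraries, 53.2%, in 33 of the 147 genes and below it in 4. These are 22.4% and 2.72% of the genes, against 39.9% and 19.1% of the other eligible genes, which have more counts. With TMM factors the interval lay above in 21 genes and below in 7. With 100 or more protoplast counts, 22 of 27 of the genes were higher in protoplast 1, with a median of 0.32, against 64.8% of the other eligible genes at that depth, with a median of 0.11. With TMM factors these were 18 of 27 and a median of 0.19, against -0.02. There is 1 library on each side of this ratio, so it compares these libraries only.

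**Figure D5:**
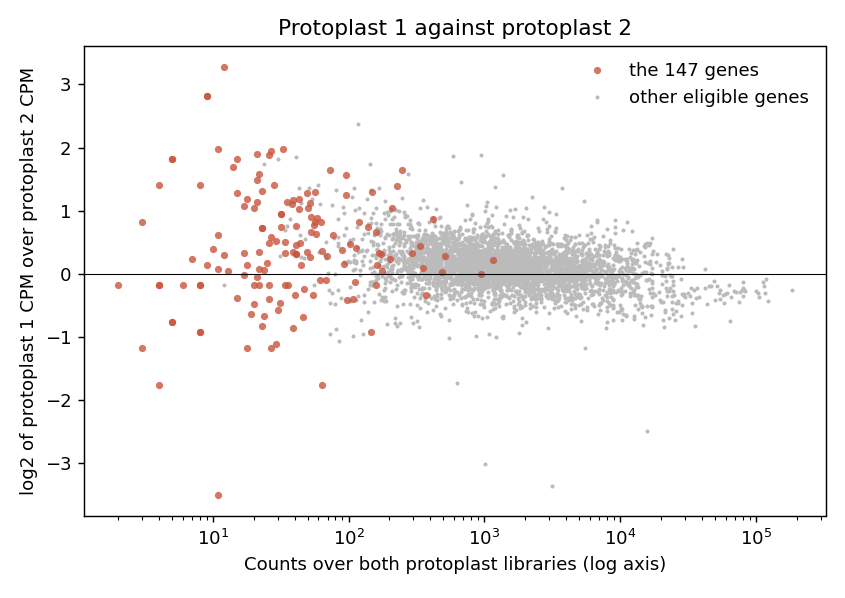
The log2 ratio of protoplast 1 CPM over protoplast 2 CPM against the counts over both protoplast libraries (log axis), for the 147 genes (red) and the other eligible genes (grey); each point is 1 gene. The red points spread widest at low counts, and with 100 counts or more 22 of 27 lie above 0 (18 of 27 with TMM factors).

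Ratios by library totals ranged widely among the 147 genes. Among the 107 genes with 20 or more protoplast counts, the highest ratios were those of Zm00001d002333 (27 and 6 counts), Zm00001d033457 (22 and 5 counts) and Zm00001d032138 (17 and 4 counts), at 1.98, 1.95 and 1.90. Zm00001d005692 had the lowest, at -1.77, with 16 and 48 counts in protoplasts beside 1178 and 1313 in leaf. Next came Zm00001d032049 at -1.19, with 9 and 18 counts, and Zm00001d028625 at -1.11, and for both the interval held the share of the whole libraries. Zm00001d005692 was thus the one of these low genes whose ratio was below that of the libraries beyond counting error. Of the abundant genes, Zm00001d004689 had a ratio of 1.65 and Zm00001d026632 of 1.39, while glutamine synthetase6 was at 0.00 and glycine cleavage H1 at 0.03. Among the markers, the abaxial bundle sheath sucrose transporter SWEET13a had 16.2 and 6.68 CPM in protoplasts, a ratio of 1.28, and RBCS2 was at 0.10. SWEET13a was not typical of its list, since the median ratio over 13 abaxial bundle sheath genes outside the 147 was 0.19. Its paralogs differed, with SWEET13b at 1.74 on 19 and 5 counts and SWEET13c at 0.49. The part of cell composition in these ratios was not tested.

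Across the eligible genes, the median ratio was larger the lower the score. It was 0.34 over ranks 1 to 150, 0.29 over ranks 151 to 300 and 0.25 over ranks 301 to 600. The values went on to 0.21 over ranks 601 to 1000, 0.16 over ranks 1001 to 2000 and 0.12 over ranks 2001 to 3000. From rank 3001 it was -0.09. TMM factors lower each of these medians by 0.125. The score takes the higher protoplast library, and ratios and scores share their counts, so this is a description. The leaf libraries showed no such split, with a median log2 ratio of leaf 1 over leaf 2 of 0.01 in the 147 genes and 0.00 in the others, and 2 of the 147 genes had leaf libraries over 1.5-fold apart.

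Eligible genes outside the 147 that lay directly beside one of them in the annotation were 90 in number. Their median score was -0.12, and 21.1% of them scored below -1, against 17.1% of all eligible genes outside the 147. The rule took the lowest scores into the group, so these neighbours could hardly score as low, and their lowest score was -3.57. There were 10 genes of the group that lay next to another of them, in 5 pairs. The number of such pairs to be met without any grouping was not computed. Purine permease 3 and Zm00001d005935 lie at chr2:193307734-193311021 and chr2:193316220-193317065, both on the minus strand. Zm00001d005935 had 36 and 17 counts in protoplasts and 887 and 797 in leaf, and purine permease 3 had 40 and 19 counts in protoplasts and 816 and 731 in leaf, so the pair had nearly the same values in every library. Zm00001d007456 (10 and 14 counts in protoplasts, 348 and 332 in leaf) and Zm00001d007457 (13 and 17 counts in protoplasts, 597 and 533 in leaf) lie on the minus strand of chromosome 2 with 3663 and 3661 exonic bases in 3 blocks each. Genes so alike in structure may be near copies that share reads, which was not checked for lack of sequence, and their counts are uncertain.

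The remaining pairs were less alike. Zm00001d024885 had 6 and 5 counts in protoplasts and 353 and 272 in leaf, and its neighbour on the other strand of chromosome 10, Zm00001d024886, had 6 and 2 counts in protoplasts and 477 and 318 in leaf. Zm00001d026289, beside methyl binding domain123 on chromosome 10, had 146 and 62 counts in protoplasts and 2334 and 2051 in leaf. Zm00001d032480 and Zm00001d032481, on opposite strands of chromosome 1, had leaf libraries that differed in opposite directions. Zm00001d032480 had 15 and 24 counts in protoplasts and 506 and 595 in leaf. Zm00001d032481 had 23 and 24 counts in protoplasts and 811 and 447 in leaf. Of the 147 genes, 5 overlap a gene annotated on the other strand, among them the MATE carrier and the quinone oxidoreductase-like gene, and copper-transporting ATPase HMA5 overlaps one on its own strand. Whether the counting used strand is not given in the sources used here, so reads of such genes cannot be told apart from those of their partners.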

How the data were processed

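Polyadenylated RNA of 2 protoplast pools and 2 leaf pools was sequenced by the authors, who trimmed reads with Trim Galore 0.6.5, aligned them with STAR 2.5.1b to the AGPv4 B73 genome and counted them with featureCounts 2.0.1. The deposited values are raw read counts per gene, without normalization. The copy of the leaf 1 counts ends within chromosome 3 and has damaged lines, so CPM were computed over the 18609 genes whose fields matched in all libraries; other genes were not used here. Genes passing filterByExpr (9017) were fitted in R 4.3.3 with edgeR 4.0.16 (TMM, robust quasi-likelihood, no block, Benjamini-Hochberg), after the fit had been tested on simulated data. limma 3.58.1 and DESeq2 1.42.0 served as alternatives. Intervals are exact binomial (scipy 1.17.1). None of the gene identifiers of the 147 genes matched the RefSeq table of names, so names come from the study's tables. The members and all lists were chosen with earlier results of these data known. Named genes are the 12 lowest scores, the 8 highest leaf levels, every gene with a description, the 3 genes on either side of the limit, the 3 highest and 3 lowest protoplast ratios and genes beside another member; neighbouring and marker genes named beyond these were chosen after their values were seen. Columns of the authors' own comparisons in the supplementary tables were not used.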

Additional observations from a re-analysis of the deposited data

How the results depend on the processing

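All 147 genes stayed called lower and their median log2 fold change lay between -5.11 and -4.48 under the 12 alternatives of the fit, with 1 exception for the count: requiring at least 10 counts in every library left 91 of the 147 genes to be tested, all 91 called lower, with a median of -4.48, and 1295 genes called lower over all genes instead of 2110. That filter drops the genes with the fewest protoplast counts by construction. Leaving out each library in turn, the count of genes called lower over all genes lay between 1906 and 2209, the count called higher between 1582 and 1885, and the median of the 147 genes between -5.04 and -4.83. Such a fit leaves 1 sample in a group, so its spread comes from the other group alone and the lone sample is assumed to vary like it. With the replicate block the median was -4.84 and 2029 genes were called lower and 1731 higher, and the block changed no call of the 147 genes. Deviations of same-numbered libraries correlated at -0.13, and with the pairs crossed, an alternative added after the data were seen, 2128 genes were called lower and 1774 higher. Scaling by library totals gave 2596 lower and 1458 higher. Membership moved most with a leaf minimum of 400 counts, which kept 95 of the 147 genes, and other changes of the rule kept between 116 and 147. The median ratio of the protoplast libraries was 0.21 with TMM factors and 0.39 with the totals of the complete libraries. Of 592 values of 51 named genes under these alternatives, 547 moved by less than the spread between replicates and 45 by more, 18 of them with library totals, and none changed sign.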
